A study of Equus caballus with 45 samples.

Results

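The OAS family was followed through horse cells from bone marrow, joint and blood as the 4 genes OAS1, OAS2, OAS3 and OASL, taken by their symbols from 20881 protein coding genes counted in 45 RNA-seq libraries. OAS1, OAS2 and OAS3 are 2′-5′-oligoadenylate synthetases, which bind double-stranded RNA and join ATP into short oligomers (2-5A) that act as a second messenger of antiviral defense. Human OASL has the same fold but lacks the synthetase activity and instead acts on other nucleic acid sensors. All 4 genes are classical targets of type I interferon, and their transcripts are widely read as a sign of an antiviral state.

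Equine mesenchymal stromal cells (MSC) from sternal bone marrow of 3 donor horses (PC, 99 and 92) were left untreated or activated for 2 h with poly I:C, a synthetic double-stranded RNA that activates TLR3, or with 2′3′-cGAMP, the natural ligand of STING, then washed and lysed 24 h later. The labels give the agonist dose as 10 ng/mL and the methods of the study as 10 µg/mL, and another 3 MSC libraries carry a CpG label whose treatment the methods do not describe. Synoviocytes and chondrocytes (both expanded from a femoropatellar joint) and macrophages (matured from blood monocytes) each came from 1 horse. They were left alone, given IL-1β and TNF-α (20 ng/mL, or 10 ng/mL on the macrophage labels), or given these cytokines with conditioned medium of resting MSC (resting MSC-CM), of poly I:C activated MSC (TLR-MSC-CM) or of 2′3′-cGAMP activated MSC (STING-MSC-CM) for 24 h, followed by 24 h in fresh medium. The 3 libraries of a medium condition are named PC, ORC and AG1, which is read here as the MSC donor of the medium, since the methods take the joint cells from 1 horse. Figure captions of the study call them 3 biological replicates of each joint cell type. The labels also put one of these names on libraries that received no medium, and whether ORC and AG1 are the MSC donors numbered 99 and 92 is not given in the sources used here. By this reading the p-values measure the spread between media on cells of 1 animal, and no addition and cytokines alone have 1 library per cell type.

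Libraries held 23525704 to 54103873 counts (median 31660884), so that a count of 3, the limit that a count of 0 allows, was 0.0557 to 0.129 counts per 1000000 counts of the library (CPM, with the library sizes scaled by TMM in each of 2 tables separately). All 4 genes passed the filter of 10 counts in total in every comparison that used all libraries. The poly I:C library of MSC donor 92 stood apart from the other poly I:C libraries in the family's own genes. For the 4 members, edgeR's adjusted p of the TLR3 agonist against untreated MSC is given with and without it. So are their log2 fold changes between the agonists. The log2 fold changes of the TLR3 agonist against untreated MSC, for the members and for genes beside the family, are given only with it. The comparison of the STING agonist with untreated MSC shared its fit with that library and was not rerun without it. Whether the cells of that library received the agonist or its label belongs to another library is not known. Every mean and fold of the TLR3 agonist that includes that library thus carries this doubt. Macrophages carried the summed level of 11 macrophage markers at 8094 to 12001 CPM, against 13.1 to 18.9 CPM in synoviocytes and 9.88 to 37.4 CPM in chondrocytes. In the cells labeled chondrocytes the cartilage genes ACAN (6.05 to 96.6 CPM) and COMP (15.9 to 163 CPM) lay above synoviocytes (0.468 to 3.52 and 0.540 to 1.93 CPM), while COL2A1 reached at most 0.381 CPM. The sum over 10 chondrocyte markers, of which COL11A1 made up most, overlapped between chondrocytes (157 to 732 CPM), synoviocytes (147 to 343 CPM) and MSC (211 to 868 CPM). In bulk RNA, more cells expressing a gene and more RNA per cell cannot be told apart.

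Activation of MSC was compared first, to ask how far each agonist raised the family in the activated cells themselves. All 4 genes were higher with the STING agonist in each of the 3 donors and with the TLR3 agonist in 2 of 3 donors, with donor 92 at its untreated level. OAS1 stood at 22.4, 25.4 and 24.2 CPM in untreated MSC of donors PC, 99 and 92, at 418, 227 and 21.8 CPM after the TLR3 agonist, and at 348, 314 and 176 CPM after the STING agonist. OAS2 stood at 41.1, 39.1 and 23.7 CPM untreated, at 1156, 511 and 22.7 CPM after the TLR3 agonist, and at 969, 705 and 667 CPM after the STING agonist. Thus the STING agonist libraries lay above every untreated library for both genes, while the TLR3 agonist library of donor 92 lay below the untreated library of the same horse.

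OAS3, the member with the most synthetase-like units, stood at 12.3, 14.0 and 29.3 CPM untreated, at 1032, 410 and 25.3 CPM after the TLR3 agonist, and at 759, 779 and 531 CPM after the STING agonist. OASL was all but absent from untreated MSC, with 2, 1 and 2 counts in donors PC, 99 and 92. It reached 147, 38.9 and 0 CPM after the TLR3 agonist and 102, 116 and 26.7 CPM after the STING agonist. The poly I:C library of donor 92 held no OASL count, and donor 92 also gave the lowest STING agonist value for each of the 4 genes. The family took 0.00765% to 0.00771% of all counts in untreated MSC, 0.273%, 0.11% and 0.00716% after the TLR3 agonist, and 0.225%, 0.191% and 0.147% after the STING agonist.

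**Figure D1:**
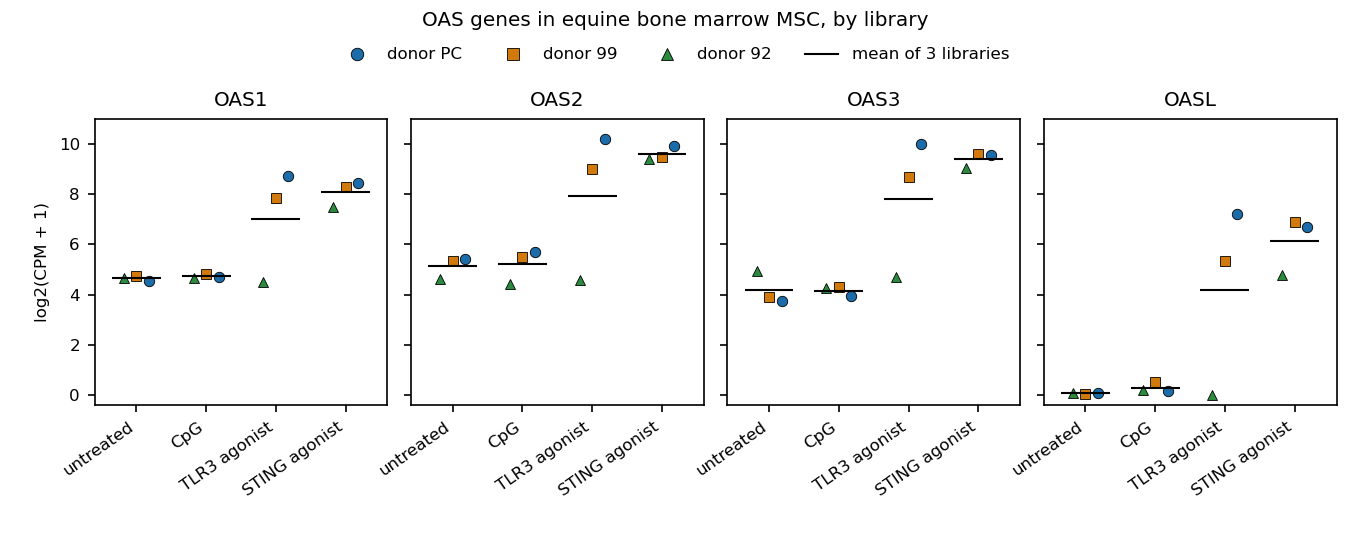
Level of each OAS gene (1 panel per gene) as log2(CPM + 1) in the 12 MSC libraries, with 1 point per donor (PC, 99, 92) and a line at the mean of each condition on that scale. In every panel the 3 STING agonist points lie above the untreated points, while the TLR3 agonist points of donors PC and 99 are high and that of donor 92 lies at the untreated level or at 0.

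Means after the TLR3 agonist were 222 ± 198 CPM for OAS1, 563 ± 569 for OAS2, 489 ± 508 for OAS3 and 62.1 ± 76.4 for OASL (SD, n = 3), so that the SD nearly equaled or exceeded the mean. Against untreated MSC the log2 fold changes were 3.24 (SE 0.848) for OAS1, 4.05 (SE 1.08) for OAS2, 4.75 (SE 1.10) for OAS3 and 10.39 (SE 2.47) for OASL. The thresholds of the study ask for an unadjusted p no higher than 0.05 together with a change of 2 or more on the log2 scale, up or down. By these, 4 of 4 members were called higher, against 0.827% of all 14872 genes tested called in either direction. With Benjamini-Hochberg adjustment in edgeR's quasi-likelihood test, 0 of 4 members passed (adjusted p = 1.00 for each), as did 0% of all genes, although all 4 had an unadjusted p under 0.05 (0.00228 to 0.00503), as did 1.13% of all genes. DESeq2 called 4 of 4 members, with adjusted p from 0.000152 to 0.0108, and 0.326% of all genes.

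The adjusted call of the TLR3 agonist in edgeR turned on 1 library, while DESeq2 and the study's thresholds called 4 of 4 with it kept. Without the poly I:C library of donor 92, edgeR's adjusted p was 0.00790 for OAS1, 0.00732 for OAS2, 0.0111 for OAS3 and 0.00732 for OASL, so that 4 of 4 members passed beside 0.325% of all genes. Because that library was singled out by its levels of these same genes, this refit shows dependence on it and is no test of the agonist. Groups overlapped for each of the 4 genes with that library kept, and the exact two-sided permutation test gave p = 0.4 for OAS1, OAS2 and OASL and p = 0.2 for OAS3, where the smallest p that 3 against 3 allows is 0.1. Within donors, the ratio of the TLR3 agonist library to the untreated library was 18.7, 8.94 and 0.900 for OAS1, 28.1, 13.1 and 0.957 for OAS2, and 84.0, 29.4 and 0.863 for OAS3 in donors PC, 99 and 92. Summed over donors, OASL had 9041 counts against 5 untreated, a ratio of CPM of 1591 with a 95% interval of 682 to 4902 for counting error only.

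After the STING agonist the levels were closer together across donors, at 279 ± 90.9 CPM for OAS1, 781 ± 164 for OAS2, 690 ± 138 for OAS3 and 81.7 ± 48.2 for OASL (SD, n = 3). Log2 fold changes against untreated MSC were 3.58 (SE 0.861) for OAS1, 4.53 (SE 1.10) for OAS2, 5.26 (SE 1.13) for OAS3 and 10.80 (SE 2.50) for OASL. Of the 4 members, 4 passed the study's thresholds, beside 1% of all genes, and 0 passed edgeR's adjusted p, beside 0% of all genes (adjusted p = 1 for each, unadjusted p 0.00142 to 0.00304, 2.06% of all genes with an unadjusted p under 0.05). DESeq2 called 4 of 4, with adjusted p from 4.61e-06 to 0.00112, beside 0.657% of all genes. No STING agonist library overlapped an untreated one for any of the 4 genes, a separation upward seen in 3.13% of all genes, and the exact permutation p was 0.1 for each, the smallest possible.

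Per donor, the STING agonist ratio was 15.5, 12.4 and 7.27 for OAS1, 23.6, 18.0 and 28.1 for OAS2, and 61.8, 55.8 and 18.1 for OAS3 in donors PC, 99 and 92. Donor 92 thus had the smallest ratio for OAS1 and OAS3 and the greatest for OAS2. OASL had 8926 counts against 5, a ratio of CPM of 1961 (95% interval 840 to 6042, counting error only).

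The agonists were also compared with each other. STING agonist minus TLR3 agonist gave log2 fold changes of 0.33 (SE 0.778) for OAS1, 0.47 (SE 0.955) for OAS2, 0.50 (SE 0.945) for OAS3 and 0.40 (SE 1.5) for OASL, with unadjusted p from 0.610 to 0.795 and adjusted p = 1 in edgeR. None of the 4 members passed the study's thresholds, beside 0.155% of all genes, or had an unadjusted p under 0.05, beside 0.208%, and DESeq2 called 0 of 4 by adjusted p, while these SEs leave room for differences of several fold either way. Without the poly I:C library of donor 92 the direction of all 4 turned, to -0.20, -0.089, -0.056 and -0.18.

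CpG-labeled MSC kept OAS1 at 25.0, 27.2 and 24.2 CPM, OAS2 at 51.2, 44.4 and 20.3 CPM and OAS3 at 14.2, 18.7 and 18.0 CPM in donors PC, 99 and 92, all overlapping the untreated libraries that serve as the shared control. OASL had 4, 14 and 6 counts, above the 2, 1 and 2 of untreated MSC in each donor, a ratio of CPM of 4.97 (95% interval 1.86 to 16.7, counting error only). That separation upward was seen in 1.13% of all genes, the exact permutation p was 0.1, and 0 of 4 members passed the study's thresholds, beside 0.205% of all genes. In edgeR and in DESeq2 0 of 4 passed an adjusted p of 0.05, and 0 of 4 had an unadjusted p under 0.05 in edgeR, beside 0.278%. These fits also held the activated MSC libraries, with the poly I:C library of donor 92 among them.

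**Figure D2:**
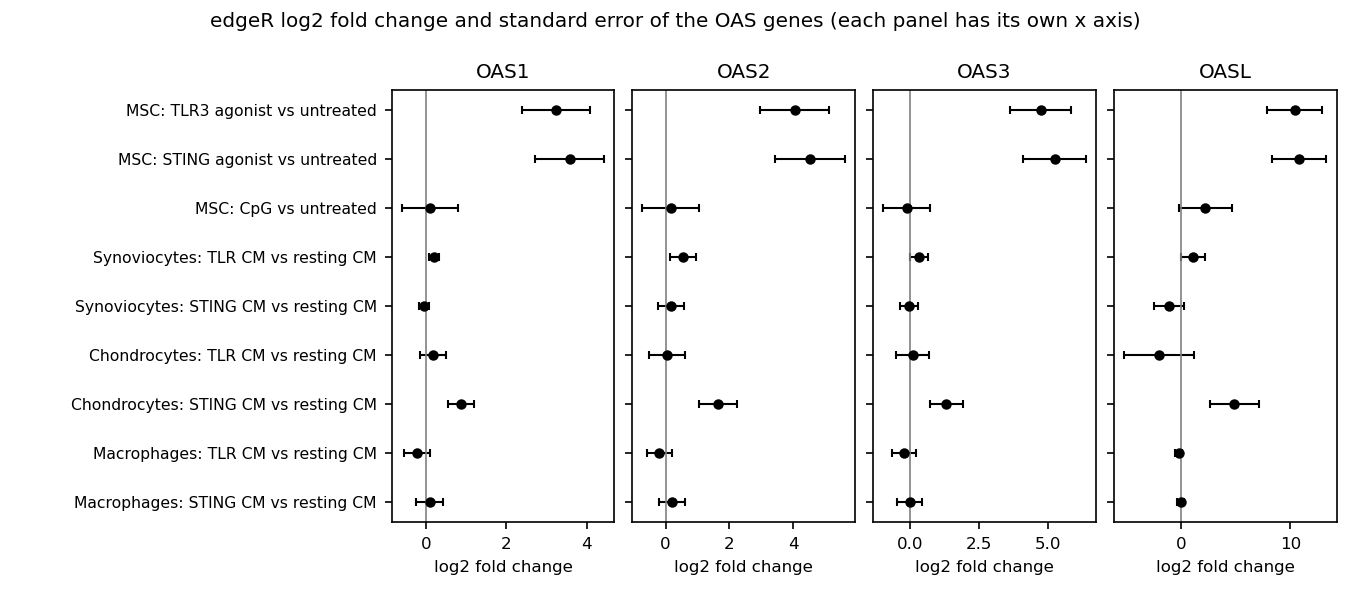
Log2 fold changes from edgeR (points) with ± 1 SE (bars) for OAS1, OAS2, OAS3 and OASL in MSC activation and in conditioned medium against resting medium of each joint cell type, with an x axis of its own in each panel. The values of the TLR3 and STING agonists in MSC lie at 3.24 to 10.80. In each panel those of conditioned medium in joint cells lie nearer 0, and the farthest is OASL in chondrocytes under STING-MSC-CM (4.88). CpG-labeled MSC, also drawn, lie at 0.088, 0.16, -0.13 and 2.25 for OAS1, OAS2, OAS3 and OASL.

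The family was set beside the other genes of its pathway in MSC. Of genes that act on 2-5A or its pathway, ABCE1 (known for its role in ribosome recycling) and PDE12, AKAP7 and ENPP1 (phosphodiesterases that can degrade 2-5A) had log2 fold changes of 0.053, 0.070, 0.79 and -0.16 after the TLR3 agonist and 0.041, 0.28, 0.41 and 0.19 after the STING agonist. None of these 4 had an unadjusted p under 0.05 in edgeR, and the median over all genes tested was 0.023 and 0.011.

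Of 12 genes of nucleic acid sensing, 6 had an unadjusted p under 0.05 after each agonist, all higher, beside 1.13% and 2.06% of all genes in either direction. Among them were the RNA helicases DHX58 (6.86 and 7.33) and DDX58 (RIG-I, 3.42 and 3.65), TLR3, the receptor of poly I:C (3.47 and 3.87), and IRF7, a transcription factor of interferon genes (5.36 and 6.88). The list's median was 1.00 and 1.22.

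At the same threshold and beside the same shares of all genes, other effectors that bind double-stranded RNA gave 2 of 7 after the TLR3 agonist and 3 of 7 with the STING agonist. ZBP1, a sensor of Z-form nucleic acid, had log2 fold changes of 9.57 and 9.97, EIF2AK2 (the kinase PKR) 2.60 and 2.90, and ADAR, an RNA-editing enzyme, 1.39 and 1.63. Among 7 feedback inhibitors, 1 passed after each agonist, USP18 (5.03 and 5.65), which limits signaling at the interferon receptor. Of 7 interferon ligand genes written down, 5 were in the tables, and 2 of these had enough counts to test, with 0 called. IFNB1 had 2 counts in 1 MSC library, that of donor PC after the TLR3 agonist, and 0 counts in the other MSC libraries. None of the genes in these lists passed an adjusted p of 0.05 in edgeR in either comparison.

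**Figure D3:**
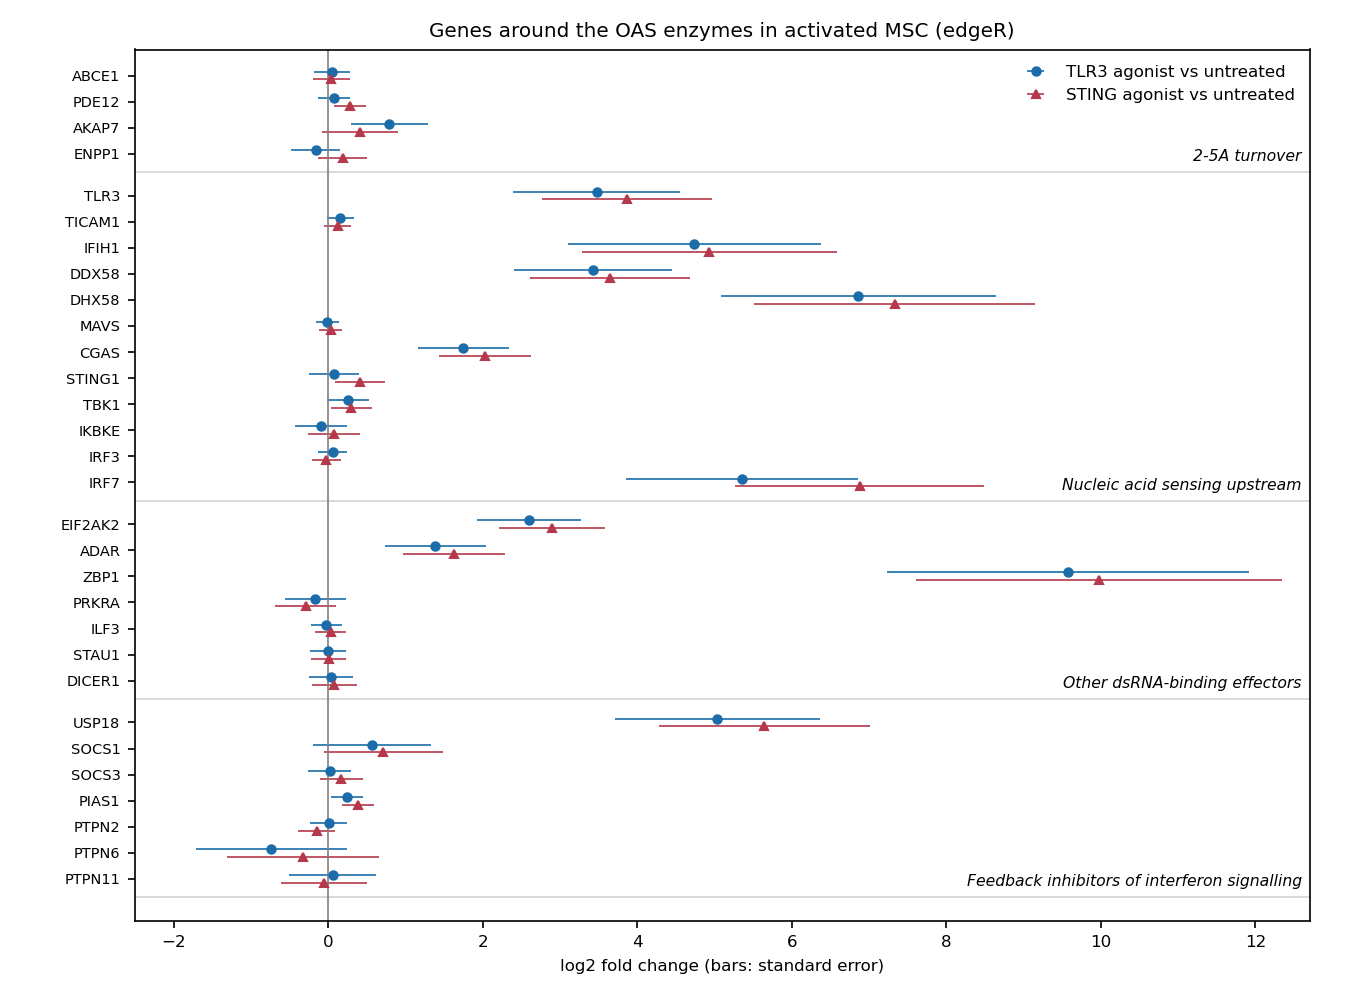
Log2 fold changes after the TLR3 and STING agonists in MSC (points) with ± 1 SE (bars) for genes of 2-5A turnover and of the sensing, dsRNA effector and feedback lists. DHX58, IRF7, DDX58, TLR3, ZBP1 and USP18 lie to the right, while the 4 genes labeled 2-5A turnover lie between -0.16 and 0.79.

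A macrophage marker moved with the family in MSC. CD68 was at 139, 123 and 9.78 CPM after the TLR3 agonist and at 188, 324 and 50.8 CPM after the STING agonist in donors PC, 99 and 92, and the summed level of the 11 macrophage markers was 12.5 to 16.3 CPM in untreated MSC, 10.5 to 140 CPM after the TLR3 agonist and 51.6 to 325 CPM after the STING agonist. The other 10 macrophage markers summed to 0.357 to 1.22 CPM in every MSC library, and the defining markers PTPRC and SPI1 had at most 12 and 6 counts.

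In synoviocytes, the question was whether medium of activated MSC carried a change in the family to another cell. Under resting MSC-CM from donors PC, ORC and AG1, OAS1 stood at 19.4, 19.0 and 18.8 CPM, OAS2 at 35.3, 38.9 and 37.5 CPM, OAS3 at 18.5, 25.6 and 20.2 CPM, and OASL had 3, 4 and 8 counts. Under TLR-MSC-CM, OAS1 stood at 18.2, 27.9 and 19.8 CPM, OAS2 at 39.4, 94.9 and 31.0 CPM, OAS3 at 19.0, 42.2 and 20.4 CPM, and OASL had 0, 27 and 5 counts. The library with medium of donor ORC was the highest of the 3 for all 4 genes, at 1.47, 2.44, 1.65 and 7.14 times the level under resting medium of the same donor for OAS1, OAS2, OAS3 and OASL, and the groups overlapped for each gene.

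Over the 3 media, TLR-MSC-CM against resting MSC-CM gave log2 fold changes of 0.19 (SE 0.127) for OAS1, 0.55 (SE 0.415) for OAS2, 0.32 (SE 0.327) for OAS3 and 1.11 (SE 1.11) for OASL. None of the 4 members passed the study's thresholds (0.473% of all genes did) or had an unadjusted p under 0.05 (9.07% did), and edgeR's adjusted p ran from 0.602 to 0.756, with exact permutation p from 0.6 to 0.8. With donor ORC left out of TLR-MSC-CM the values were -0.013, -0.083, -0.13 and -1.13, so that the higher level rested on that medium. Under STING-MSC-CM, OAS1 stood at 19.1, 19.0 and 17.0 CPM, OAS2 at 38.0, 48.4 and 39.3 CPM, OAS3 at 18.5, 22.9 and 21.9 CPM, and OASL had 0, 2 and 6 counts. The groups overlapped for each gene, although OAS2 under media of donors ORC and AG1 lay above the 3 resting libraries. OAS2 was above resting medium of the same donor in 3 of 3 donors of medium (exact permutation p = 0.2). By the study's thresholds 0 of 4 members passed in edgeR against resting MSC-CM (0.405% of all genes) or against TLR-MSC-CM (0.48% of all genes), while DESeq2 put 0 and 1 member (OASL, lower under STING-MSC-CM) past them. At an unadjusted p under 0.05 in edgeR, 0 of 4 passed in both (6.67% and 1.93% of all genes), and by adjusted p both edgeR and DESeq2 called 0 of 4 in all 3 comparisons of synoviocytes.

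**Figure D4:**
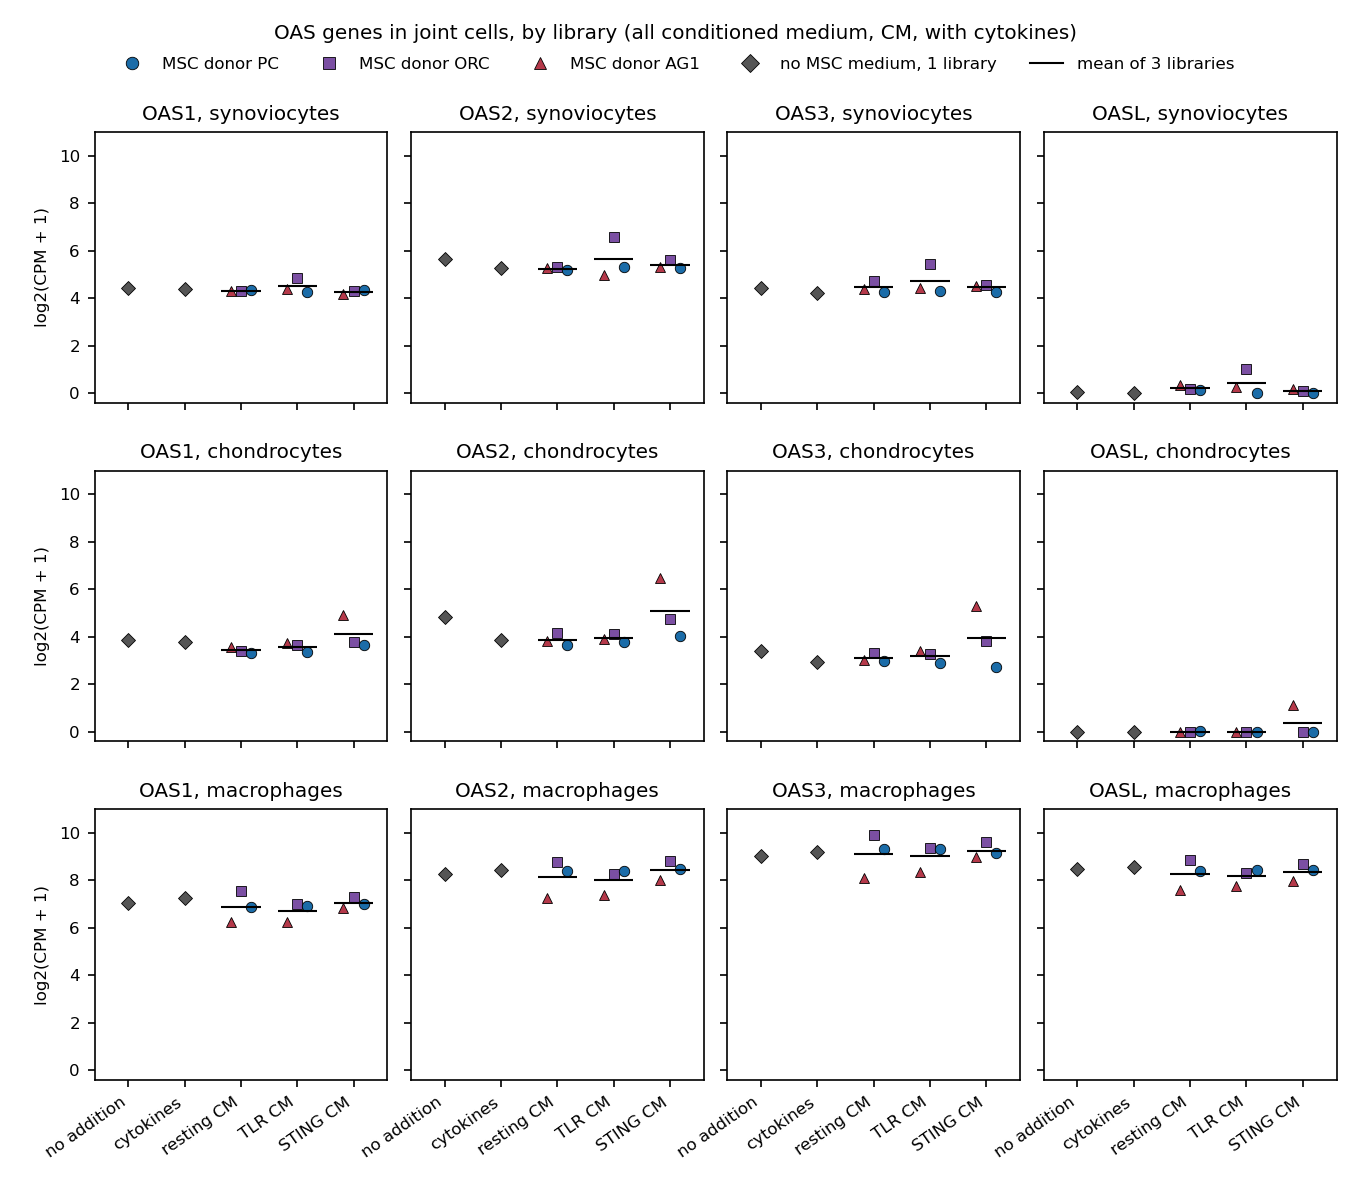
Level of each OAS gene as log2(CPM + 1) in synoviocytes, chondrocytes and macrophages (rows), with 1 point per library and conditions along the x axis, where the 3 points of a medium condition are media of 3 MSC donors. Macrophages lie above both other cell types in every panel, the ORC library stands out in synoviocytes under TLR-MSC-CM, and the AG1 library stands out in chondrocytes under STING-MSC-CM.

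Chondrocytes had lower levels, and their clearest difference came under STING-MSC-CM. Under resting MSC-CM of donors PC, ORC and AG1, OAS1 stood at 8.88, 9.66 and 10.9 CPM, OAS2 at 11.7, 16.9 and 13.3 CPM, OAS3 at 6.86, 9.01 and 7.25 CPM, and OASL had 1, 0 and 0 counts. Under STING-MSC-CM, OAS1 stood at 11.6, 12.9 and 28.9 CPM, OAS2 at 15.5, 26.1 and 89.3 CPM, OAS3 at 5.73, 13.1 and 38.1 CPM, and OASL had 0, 0 and 53 counts, or 1.2 CPM in the library of donor AG1. Medium of donor AG1 gave the highest value for each of the 4 genes, at 2.66, 6.73 and 5.26 times the resting medium of the same donor for OAS1, OAS2 and OAS3. The groups did not overlap for OAS1 and overlapped for the other 3 genes. With media of donors PC and ORC, OAS1 stayed below the single libraries of cytokines alone (13.0 CPM) and of no addition (13.4 CPM). OAS2 with these media lay between cytokines alone (13.6 CPM) and no addition (27.9 CPM).

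Against resting MSC-CM the log2 fold changes were 0.87 (SE 0.324) for OAS1, 1.65 (SE 0.587) for OAS2, 1.31 (SE 0.594) for OAS3 and 4.88 (SE 2.25) for OASL. The unadjusted p of edgeR's quasi-likelihood test was 0.0265, 0.0239, 0.0590 and 0.0669, and the adjusted p was 1.00 for each. Thus 2 of 4 members had an unadjusted p under 0.05, beside 0.79% of all genes, 0 of 4 passed the study's thresholds, beside 0.357%, and 0 of 4 passed the adjusted p, beside 0%. DESeq2 also called 0 of 4 by adjusted p and gave no p for OASL. OAS1 and OAS2 were higher in 3 of 3 donors of medium, OAS3 in 2 and OASL in 1, and the exact permutation p was 0.1, 0.2, 0.4 and 1. The separation of OAS1 upward was shared by 2.05% of all genes. Without the library of donor AG1, OAS1 was at 0.32, OAS2 at 0.57 and OAS3 at 0.29, with unadjusted p of 0.0768, 0.0434 and 0.415 and an adjusted p of 1.00 in edgeR.

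The library name, read as MSC donor of the medium, paired the chondrocyte libraries. With it as a block, OAS1 was at 0.80, OAS2 at 1.43, OAS3 at 1.09 and OASL at 4.76, with unadjusted p of 0.0226, 0.0867, 0.141 and 0.0108 in edgeR. OASL thereby passed the study's thresholds (1 of 4 members, 0.385% of all genes) on its 53 counts in 1 library. CD68 was at 36.3 CPM in that library and at 8.996 to 17.8 CPM in the other chondrocyte libraries, while the other 10 macrophage markers summed to 1.17 CPM there.

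TLR-MSC-CM left chondrocytes with OAS1 at 9.42, 11.5 and 12.2 CPM, OAS2 at 12.8, 16.5 and 13.9 CPM and OAS3 at 6.40, 8.63 and 9.69 CPM, and with no OASL count in any of the 3 libraries. Against resting MSC-CM 0 of 4 members passed the study's thresholds (0.287% of all genes), an unadjusted p under 0.05 in edgeR (0.517%) or an adjusted p in edgeR or DESeq2. STING-MSC-CM against TLR-MSC-CM, which shares the STING-MSC-CM libraries with the comparison above, gave 0.70 (SE 0.322) for OAS1, 1.61 (SE 0.585) for OAS2 and 1.22 (SE 0.590) for OAS3. OASL, at 53 against 0 counts, was the 1 member of 4 past the study's thresholds in edgeR, beside 0.266% of all genes, and 0 passed with filterByExpr as the count filter or in DESeq2, which gave no p for OASL. All 53 counts lay in the library of donor AG1, and without it no OASL count is left in either group. OAS2 and OASL, 2 of 4, had an unadjusted p under 0.05 in edgeR (0.0263 and 0.0365, 0.727% of all genes), and 0 of 4 passed the adjusted p in edgeR (1.00 for each) or in DESeq2. Of the sensing and feedback lists, TLR3 had 0 counts in each resting library of donors PC, ORC and AG1, 9, 3 and 43 counts under STING-MSC-CM and 3, 5 and 5 counts under TLR-MSC-CM (unadjusted p = 0.00213 and 0.0191 in edgeR). USP18 had 7, 7 and 3 counts under resting MSC-CM and 11, 17 and 127 under STING-MSC-CM (unadjusted p = 0.00688 in edgeR), and neither gene passed the adjusted p.

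Whether the response to STING-MSC-CM differed between chondrocytes and the other cells was tested as an interaction. Chondrocytes minus synoviocytes gave 0.92 for OAS1, 1.48 for OAS2, 1.34 for OAS3 and 6.16 for OASL, with unadjusted p of 0.0480, 0.0515, 0.0765 and 0.0596 and adjusted p of 1.00 in edgeR. Macrophages minus chondrocytes gave -0.79, -1.46, -1.34 and -5.13 in the same order. By adjusted p, edgeR and DESeq2 called 0 of 4 members in both, beside 0% of all genes in edgeR, and 1 of 4 had an unadjusted p under 0.05 in each (1.65% and 3.51% of all genes). Without the AG1 library the OASL values turned to -0.90 and 1.92.

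Macrophages held the family at a high level in every condition, with no member called by any medium. Under resting MSC-CM of donors PC, ORC and AG1, OAS1 stood at 117, 185 and 74.2 CPM, OAS2 at 339, 433 and 154 CPM, OAS3 at 648, 969 and 274 CPM and OASL at 338, 468 and 190 CPM. Medium of donor AG1 gave the lowest value of the 3 for each gene in each of the 3 media conditions, and the conditions overlapped. Against resting medium of the same donor, STING-MSC-CM of donor AG1 gave ratios of 1.51, 1.67, 1.87 and 1.30 for OAS1, OAS2, OAS3 and OASL. With donors PC and ORC these ratios were 0.803 to 1.08. Under TLR-MSC-CM they were 0.682 to 0.705 with donor ORC and 0.987 to 1.17 with donors PC and AG1. Means under TLR-MSC-CM were 107.5, 269, 541 and 294 CPM and under STING-MSC-CM 132, 352, 620 and 332 CPM for OAS1, OAS2, OAS3 and OASL, against 125, 309, 630 and 332 CPM under resting MSC-CM. The study's thresholds called 0 of 4 members in TLR-MSC-CM against resting MSC-CM (0.605% of all genes), in STING-MSC-CM against resting MSC-CM (0.512%) and in STING-MSC-CM against TLR-MSC-CM (0.578%), with 0 passing the adjusted p of edgeR or DESeq2. At an unadjusted p under 0.05 in edgeR, 0 of 4 passed in each, beside 2.1%, 4.6% and 6.42% of all genes.

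With 1 library per cell type in each condition without conditioned medium, these libraries were described and not tested. From no addition to cytokines alone, OAS1 went from 20.8 to 19.9 CPM in synoviocytes, from 13.4 to 13.0 CPM in chondrocytes and from 133 to 153 CPM in macrophages. OAS2 in chondrocytes went from 27.9 CPM (exact Poisson 95% interval 26.0 to 30.0) to 13.6 CPM (12.5 to 14.8), a ratio of 0.487, and OAS3 from 9.70 to 6.78 CPM, a ratio of 0.699. Under cytokines alone, chondrocyte OAS2 lay within the range of the libraries under resting MSC-CM (11.7 to 16.9 CPM), OAS1 lay above its range (8.88 to 10.9 CPM) and OAS3 just below (6.86 to 9.01 CPM). In synoviocytes OAS2 also lay within that range, OAS1 above and OAS3 and OASL below, and in macrophages all 4 lay within. In macrophages all 4 ratios lay between 1.07 and 1.15, and OASL had at most 1 count in the synoviocyte and chondrocyte libraries without medium. These intervals cover counting error only.

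Across cell types under resting MSC-CM, each of the 4 genes was highest in macrophages. Macrophages against synoviocytes gave log2 fold changes of 2.7 (SE 0.28) for OAS1, 3.04 (SE 0.335) for OAS2, 4.86 (SE 0.438) for OAS3 and 10.86 (SE 0.486) for OASL, with edgeR's adjusted p of 1.50e-05, 2.86e-05, 8.15e-06 and 3.92e-08. All 4 of 4 members were called, beside 71.5% of all genes called in either direction and 36.5% called higher. Macrophages against chondrocytes gave 3.65, 4.45, 6.34 and 14.45, with adjusted p from 3.07e-08 to 3.09e-06 in edgeR, and called 4 of 4 beside 71.4% of all genes (36.6% higher). The macrophage libraries also carried lymphocyte markers, whose summed level over 8 genes was 249.5 to 403 CPM (CD3E at 60.5 to 122 CPM and CD2 at 72.8 to 112 CPM), against 4.23 to 8.75 CPM in synoviocytes and chondrocytes, and the part of such cells in the OAS level was not tested. Since most genes differ between these cells, the size of the difference and not the call sets the family in context. By log2 fold change against synoviocytes, OAS1, OAS2, OAS3 and OASL ranked 2152, 1953, 1332 and 257 of 15599 genes. Against chondrocytes they ranked 1846, 1604, 1002 and 74. OASL had 31259 counts in the 3 macrophage libraries against 15 in synoviocytes, a ratio of CPM of 1782 (95% interval 1080 to 3184, counting error only), and 1 in chondrocytes.

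Chondrocytes lay below synoviocytes, with log2 fold changes of -0.95 (SE 0.277) for OAS1, -1.41 (SE 0.325) for OAS2, -1.47 (SE 0.399) for OAS3 and -3.58 (SE 1.53) for OASL, and edgeR's adjusted p of 0.0424, 0.0166, 0.0344 and 0.146. Of the 4 members, 3 were lower at an adjusted p of 0.05, beside 18.1% of all genes called. The groups did not overlap for any of the 4 genes (exact permutation p = 0.1), a separation downward seen in 20.1% of all genes. Leaving out any 1 of the 6 libraries left 0 or 1 members called, OAS1 losing its call each time, with log2 fold changes for OAS1 of -1.04 to -0.89. The study's overview takes the joint cells from 1 healthy donor horse. Its sections on synoviocytes and macrophages each name 1 horse without saying that it was the same. If it was not, cell type and animal cannot be told apart in these comparisons. The labels also give macrophages cytokines at 10 ng/mL and the other cell types at 20 ng/mL, where the methods give 20 ng/mL for all. By the labels, cell type and cytokine dose cannot be told apart in the macrophage comparisons.

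Genes around the family also differed by cell type. Of the 4 genes above that act on 2-5A or its pathway, ABCE1 (0.55) and AKAP7 (1.01) were higher in macrophages than in synoviocytes, while PDE12 stood at 0.17 (edgeR adjusted p = 0.00175, 0.0372 and 0.217). ENPP1 had 0 counts in all 3 macrophage libraries and 86.8 ± 10.7 CPM (SD, n = 3) in synoviocytes (edgeR adjusted p = 3.80e-10). The sensing list was higher for 11 of 12 genes, with 0 lower, beside 36.5% of all genes higher and 35.1% lower. Of the dsRNA effectors 3 of 7 were higher, ADAR at 1.82 among them, and 2 were lower, STAU1 at -0.96 and PRKRA at -1.57, which is near the shares over all genes.

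In the order of mean levels over the 13 replicated groups, MSC after the STING agonist came first for OAS1, OAS2 and OAS3 (279, 781 and 690 CPM). For OAS1 and OAS2 they were followed by MSC after the TLR3 agonist and then the 3 macrophage groups, and for OAS3 by the macrophage groups and then MSC after the TLR3 agonist. Neighbors in this upper part of the order overlapped, and the first neighbors that did not overlap for OAS1 and OAS2 were macrophages under TLR-MSC-CM (107.5 and 269 CPM) and the next group (25.5 CPM for OAS1 in CpG-labeled MSC, 55.1 CPM for OAS2 in synoviocytes under TLR-MSC-CM). For OASL the macrophage groups came first (294 to 332 CPM) and did not overlap MSC after the STING agonist (81.7 CPM). The lowest group was chondrocytes under resting MSC-CM for OAS1, OAS2 and OAS3 (9.80, 14.0 and 7.71 CPM) and chondrocytes under TLR-MSC-CM for OASL (0 CPM). MSC and joint cells were scaled in separate tables, so that order between them is a rough one.

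The balance between members also differed by cell. Within a library the ratio of counts of 2 members does not depend on library scaling, although transcript length keeps it from being a ratio of molecules. OASL over OAS1 was 2.21 to 2.89 in the 11 macrophage libraries (median 2.59), 0.151 to 0.371 in MSC after the STING agonist (median 0.294), 0 to 0.352 in MSC after the TLR3 agonist, and at most 0.0368 and 0.0414 in synoviocytes and chondrocytes. Macrophage libraries and activated MSC libraries did not overlap in this ratio, even though OAS1 itself reached higher levels in MSC.

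OAS3 over OAS1 was 3.69 to 5.53 in macrophages (median 4.59), 2.18 to 3.02 in MSC after the STING agonist (median 2.48), 1.16 to 2.47 after the TLR3 agonist and 0.548 to 1.21 in untreated MSC. OAS2 over OAS1 spread less by cell, at 2.08 to 2.90 in macrophages, 2.24 to 3.79 in MSC after the STING agonist, 1.56 to 3.39 in synoviocytes and 1.05 to 3.09 in chondrocytes. This ratio was lower in untreated MSC (0.979 to 1.84) and CpG-labeled MSC (0.836 to 2.05), without overlap with the STING agonist libraries. After the TLR3 agonist it was 1.04 to 2.76. Within the family, OASL made up 21.9% to 27.6% of the OAS counts of macrophages under the 3 media and 1.90% to 6.08% of those of MSC after the STING agonist.

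**Figure D5:**
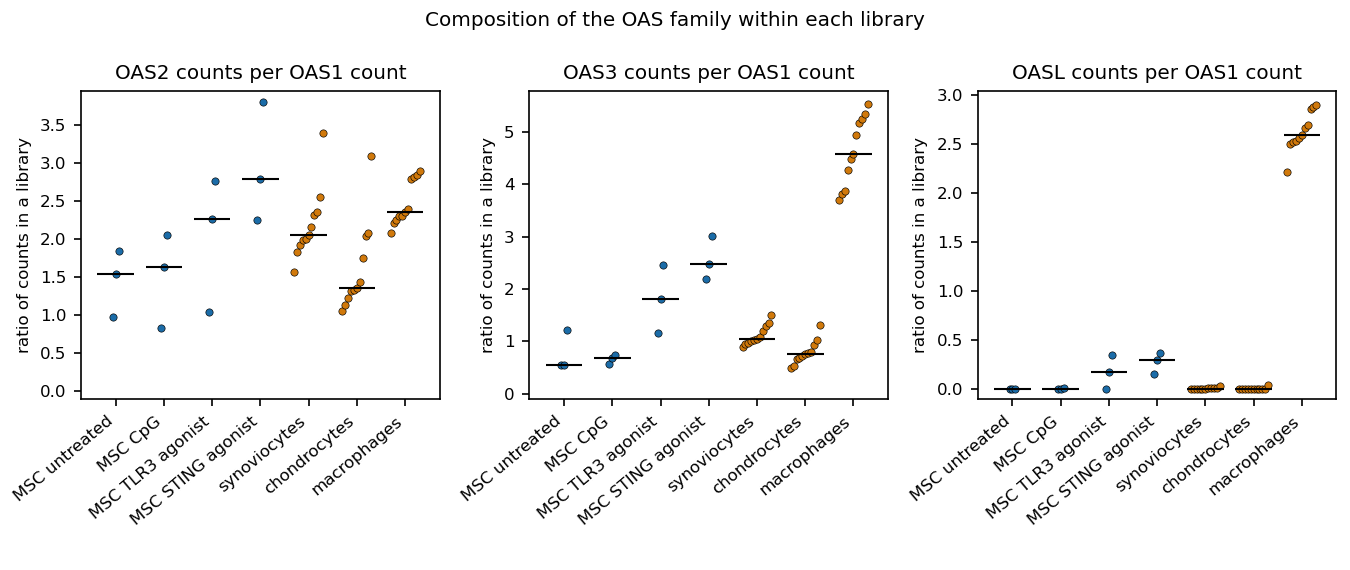
Ratio of counts of OAS2, OAS3 and OASL to OAS1 within each library (points), by cell type and MSC condition, with a bar at the median. Macrophages stand highest for OAS3 over OAS1 and for OASL over OAS1, with medians of 4.59 and 2.59.

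Genes most like each member were ranked by Pearson r of log2(CPM + 1) over the 45 libraries, centered on cell type, among 12524 genes. The values describe libraries that share donors, depth and the same few activated samples, and the genes are not independent. Closest to OAS1 were CMPK2 (r = 0.986), PARP12, OASL, IFIT3 and HERC5 (r = 0.979), and closest to OAS2 were ENSECAG00000033029 (r = 0.978), DDX60L, OAS1, PARP12 and GBP5 (r = 0.969). OAS3 was nearest to PARP12 (r = 0.986), HERC6, MX1, SAMD9L and HERC5 (r = 0.98), and OASL to ZBP1 (r = 0.989), RTP4, TRIM22, CMPK2 and OAS1 (r = 0.983).

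Over the 12 MSC libraries alone, uncentered and among 12394 genes, OAS1 was nearest to OASL (r = 0.998), followed by RTP4, ZBP1, CMPK2 and IFIT3. OAS2 was nearest to DHX58 (r = 0.993), followed by CMPK2, ENSECAG00000012132, GBP5 and XAF1, and OAS3 to HERC6 (r = 0.996), followed by SAMD9L, PARP12, HERC5 and SP110. OASL was nearest to OAS1 (r = 0.998), followed by RTP4, FBXO39, ZBP1 and IFIT3.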

How the data were processed

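RNA-seq was performed on MSC, synoviocytes, chondrocytes and macrophages. The authors deposited raw read counts per gene in 2 tables (MSC and joint cells) for EquCab 3.0 with Ensembl annotation. The submitters' processing notes name cutadapt 1.12, STAR, HTSeq 0.11.0 and DESeq2. From the deposited counts, edgeR 4.0.16 quasi-likelihood tests (R 4.3.3, TMM, genes with at least 10 counts in total, Benjamini-Hochberg over all genes) were fitted per cell type over its 3 replicated conditions. For MSC these were untreated, TLR3 agonist and STING agonist. CpG-labeled MSC were set against untreated MSC in a fit of all MSC conditions. The cell types under resting MSC-CM had their own fit, and the interactions came from a fit of all medium conditions of all joint cell types. The study's thresholds (unadjusted p of at most 0.05, log2 fold change of at least 2) were also applied. As edgeR's test gives no SE, the SE printed is the absolute log2 fold change over the square root of its F statistic. It is a rough one for OASL, which had few counts in several groups. Alternatives were DESeq2 1.42.0, RLE, other count filters, a prior count of 2, total counts as scale, MSC donor as a block and each library left out. Same-donor deviations correlated at 0.652 or more in MSC, 0.573 in chondrocytes and 0.34 in macrophages, but down to -0.377 in synoviocytes, so that donor paired the libraries in all but synoviocytes. The 4 members and the gene lists were chosen with earlier results of these data known. Besides the members, the genes of 2-5A turnover, up to 3 genes with the smallest p per other list and the 5 genes nearest in pattern to each member were named, and IFNB1 was added after its values were seen. Some genes that these rules name are not reported here. Scripts were tested on simulated counts. Coordinates, sequences and transcript lengths were not used here, so levels are not compared between genes. Figures were drawn with matplotlib 3.10.9 in Python 3.11.15.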

Additional observations from a re-analysis of the deposited data

How the results depend on the processing

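The adjusted p of the family in activated MSC depended on the tool and on 1 library. DESeq2 called 4 of 4 members after the TLR3 agonist and 4 of 4 after the STING agonist, where edgeR called 0, and leaving out 1 library at a time called 0 to 4 after the TLR3 agonist. With the replicate block of MSC donor, which paired the MSC, chondrocyte and macrophage libraries, edgeR's adjusted p was 0.308 to 0.407 for the 4 members after the STING agonist and 1.00 after the TLR3 agonist, and 4 of 4 kept the study's thresholds in both. In STING-MSC-CM against resting MSC-CM in chondrocytes the block moved the members past the study's thresholds from 0 to 1, and left-out libraries gave 0 to 2. In STING-MSC-CM against TLR-MSC-CM in chondrocytes the 1 member past them became 0 with filterByExpr and 0 with DESeq2, which gave no p for OASL, and 0 to 2 with a library left out. In synoviocytes, STING-MSC-CM against TLR-MSC-CM had 1 member past them in DESeq2, and 0 to 1 with a library left out. Chondrocytes against synoviocytes fell from 3 members to 1 with no count filter, 2 with the block, and 0 to 1 with a library left out, while DESeq2 called 4. Leaving out 1 library turned the direction of uncalled values. STING agonist against TLR3 agonist ran from -0.20 to 1.15 for OAS1, -0.0886 to 1.53 for OAS2, -0.0559 to 1.65 for OAS3 and -0.18 to 2.05 for OASL. TLR-MSC-CM in synoviocytes ran from -0.0132 to 0.32 for OAS1, -0.0826 to 0.83 for OAS2, -0.13 to 0.54 for OAS3 and -1.13 to 1.80 for OASL, and OASL's interactions with STING-MSC-CM ran from -0.90 to 8.09 (chondrocytes minus synoviocytes) and -7.06 to 1.92 (macrophages minus chondrocytes). The causes were not tested. Over all comparisons, 62 log2 fold changes turned with a library left out and 2 under the other alternatives. Depth limits OASL, which had 1 to 2 counts in untreated MSC, 0 to 27 in synoviocytes and 0 to 53 in chondrocytes.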
